A study of Rattus norvegicus with 6 samples.

Results

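A set of genes of the unfolded protein response was followed in the rat heart after myocardial ischemia/reperfusion injury (MI/RI). They are the 10 of 28293 genes in the deposited table that carry the symbols *Atf6*, *Xbp1*, *Atf4*, *Ddit3*, *Trib3*, *Hspa5*, *Hsp90b1*, *Calr*, *Pdia4* and *Herpud1*. RNA sequencing was performed on 6 samples of myocardial tissue from wild-type male rats, 3 sham and 3 MI/RI, each with its own number in the title. The labels do not say that each sample is a separate rat. In the MI/RI rats, labelled I/R, blood flow through the left anterior descending coronary artery was stopped for 30 min by ligation in the opened chest and then restored for 6 h before the heart was removed. The sham samples carry the same times in their titles. No label gives the region that was sampled, the infarct size or the steps of the sham operation, and strain and age were not used here. The comparison addresses how transcripts of this response stood in the reperfused heart.

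The endoplasmic reticulum (ER) is where secreted and membrane proteins fold, and cardiomyocytes also use a specialised form of it to store calcium. When unfolded proteins gather there, the membrane sensors IRE1, PERK and ATF6 signal to the nucleus. IRE1 splices the *Xbp1* transcript, PERK phosphorylates the initiation factor eIF2α, which slows translation but lets ATF4 be made, and ATF6 is cut in the Golgi to release a transcription factor. ATF6 and XBP1 act mainly on genes of chaperones and of ER-associated degradation, and ATF4 acts on genes of amino acid supply and, through CHOP (*Ddit3*), of cell death. Splicing of *Xbp1*, phosphorylation of PERK and cleavage of ATF6 leave no trace in a table with 1 value per gene, so transcript levels alone are described.

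The promoters of some of the chaperone genes carry sequences that these factors read. RefSeq promoters of the build GRCr8 (250 bases before to 50 bases after the start) were found for 9 of the 10 genes, all but *Atf6*. The ER stress response element (ERSE), which reads CCAAT, 9 free bases and CCACG and was searched on both strands, is bound by NF-Y and by ATF6 or XBP1. It was held by the promoters of *Hspa5*, *Hsp90b1*, *Xbp1* and *Calr*, 4 of 9, and by 21 of all 27457 promoters (0.0765%). The related element ERSE-II, which reads ATTGG, 1 free base and CCACG, was held by *Herpud1* and by 15 promoters in all (0.0546%). The C/EBP-ATF response element (CARE), which reads TGATG, 1 free base and AA, at which ATF4 binds, was held by *Trib3* and *Herpud1* and by 1048 promoters (3.82%). The sites are printed 5′ to 3′ on the strand of the gene with 5 bases on either side. Capitals mark the fixed letters of the motif, which read as the reverse complement where the motif lies on the opposite strand.
Hspa5 ERSE (chr3:38452968-38452996, + strand): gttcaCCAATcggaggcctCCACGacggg
Hsp90b1 distal ERSE (chr7:23012446-23012474, - strand): caaacCCAATcgaaaggagCCACGcttcg
Hsp90b1 proximal ERSE, opposite strand (chr7:23012342-23012370, - strand): gagtgCGTGGtgaggcacgATTGGtgggt
Xbp1 ERSE (chr14:84604553-84604581, + strand): acaggCCAATcgcagacggCCACGaccct
Calr ERSE, opposite strand (chr19:40213130-40213158, + strand): caacgCGTGGtcgaccctgATTGGcccag
Herpud1 ERSE-II (chr19:10614816-10614836, - strand): cgctgATTGGgCCACGttggg
Herpud1 CARE, opposite strand (chr19:10614879-10614896, - strand): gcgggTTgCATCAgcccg
Trib3 CARE, opposite strand (chr3:161275542-161275559, - strand): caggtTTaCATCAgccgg
These lay from 43 to 25 bases upstream of the start in *Hspa5*, from 65 to 47 in *Xbp1* and from 232 to 214 in *Calr*. The pair in *Hsp90b1* lay from 176 to 158 and from 72 to 54 bases upstream. The other motifs searched, UPRE (TGACGTGG, in 0.637% of promoters) and the cyclic AMP element CRE (TGACGTCA, in 1.91%), were in 0 of the 9 windows. The windows of *Atf4*, *Ddit3* and *Pdia4* held none of the 5 motifs. A match describes letters in a window and does not show that a factor was bound there.

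Values are the deposited FPKM, fragments scaled to gene length and library size, which allows levels to be compared between genes. Each gene was tested with limma on log2(FPKM + 0.1) among the 10942 genes with a mean of at least 0.5 FPKM, and was called at a Benjamini-Hochberg adjusted p under 0.05. Log2 fold changes (log2FC) are MI/RI minus sham on that scale and are given with the standard error (SE) and 95% interval. All 10 genes passed the minimum. Mitochondrially encoded mRNAs made up 80.1% to 86.2% of the summed FPKM in sham hearts and 61.8% to 71.5% in MI/RI hearts, and the part of this in the results was not tested. The median of all genes tested was shifted by 0.29 on the log2 scale, and each gene is also given relative to that shift.

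Of the 10 genes, 6 were called higher in MI/RI, *Hspa5*, *Trib3*, *Herpud1*, *Atf4*, *Atf6* and *Calr*, and 4 were not called, *Ddit3*, *Xbp1*, *Hsp90b1* and *Pdia4*. None was called lower, and none was lower at an unadjusted p under 0.05. Across all genes tested 25.5% were called higher and 7.36% lower. The median log2FC of the 10 genes was 1.09, against 0.29 over all genes. Relative to the median of all genes, the log2FC was 1.24 for *Trib3*, 1.09 for *Herpud1*, 0.99 for *Atf4* and 0.83 for *Atf6*. For *Ddit3* and *Xbp1* it was 0.26 and 0.20, and the other 4 genes are given below. In 8 of the 10 the lowest MI/RI sample lay above the highest sham sample, which was so for 37.2% of all genes. The smallest two-sided p that an exact permutation test of 3 samples against 3 can give is 0.1, so these 8 reached 0.1 and *Ddit3* and *Pdia4* gave 0.2. Genes of high level were more often called higher: with a minimum of 5 FPKM, 50.0% of the 3784 genes were called higher and 4.39% lower, and of the 8 genes that passed, 4 were called, *Hspa5*, *Atf4*, *Calr* and *Herpud1*. The median log2FC of the 3784 genes was 0.66. Relative to it *Hspa5* stood at 0.80, *Herpud1* at 0.72, *Atf4* at 0.61 and *Calr* at 0.39. Below it lay *Ddit3* (-0.11), *Xbp1* (-0.17), *Hsp90b1* (-0.20) and *Pdia4* (-0.32). At an adjusted p under 0.01 the calls were *Hspa5*, *Atf4* and *Calr*, 3 of 10, against 10.8% of all genes higher and 1.93% lower.

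**Figure D1:**
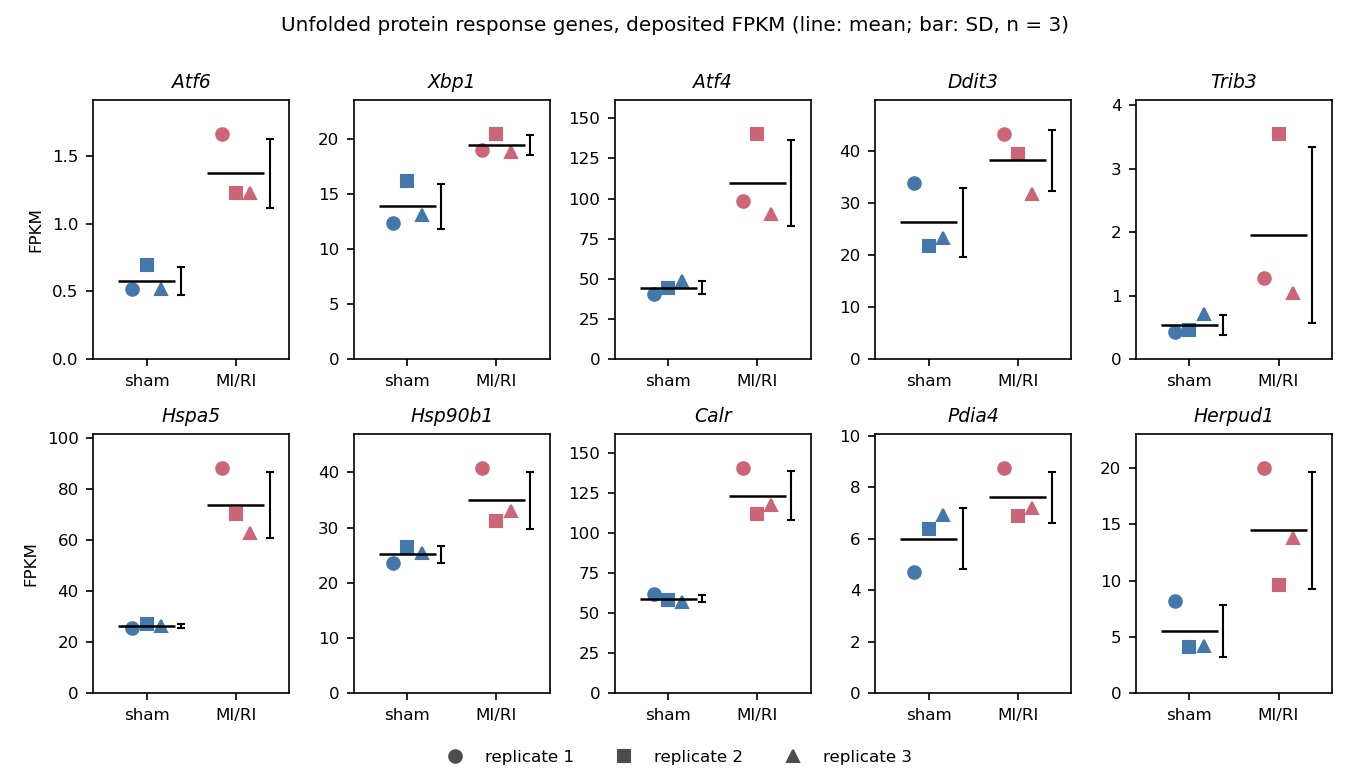
Deposited FPKM (linear axis from 0) of the 10 genes in each sham (blue) and MI/RI (red) sample. Marker shape gives the replicate, horizontal lines the mean and bars the SD (n = 3 samples). The groups are apart in every panel but those of *Ddit3* and *Pdia4*, and *Trib3* in MI/RI is carried by replicate 2 at 3.55.

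*Hspa5* encodes BiP, the most abundant Hsp70 chaperone of the ER lumen and the protein that holds the sensors inactive at rest. In the order of the replicate numbers, kept throughout, its FPKM was 25.4, 27.1 and 26.5 in sham and 88.04, 69.9 and 62.8 in MI/RI. The means were 26.4 ± 0.845 and 73.6 ± 13.0 (SD, n = 3), with a log2FC of 1.46 (SE 0.23, 95% interval 0.96 to 1.97, limma adjusted p = 0.0034). The sham values lay within 2 FPKM of each other and every MI/RI value was more than 2-fold above them. Relative to the median of all genes the log2FC was 1.17, and 9.12% of genes tested had a larger one.

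*Calr*, which encodes calreticulin, a calcium-binding lectin chaperone, had the highest level of the 10 in both groups. Its FPKM was 61.9, 58.3 and 57.2 in sham and 140.5, 112.1 and 117.5 in MI/RI. The log2FC was 1.05 (SE 0.22, 95% interval 0.56 to 1.55, adjusted p = 0.0079), or 0.76 above the median of all genes. Its groups did not overlap and its spread in sham was small, 59.1 ± 2.42.

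The other ER chaperones on the list were not called. *Hsp90b1* encodes GRP94, the Hsp90 of the ER, whose transcript is usually raised together with BiP in ER stress. Its FPKM was 23.6, 26.6 and 25.3 in sham and 40.8, 31.1 and 32.9 in MI/RI. These groups did not overlap, and the log2FC was 0.46 (SE 0.22, 95% interval -0.03 to 0.96, adjusted p = 0.131). *Pdia4* encodes ERp72, a protein disulfide isomerase. Its FPKM was 4.70, 6.40 and 6.95 in sham and 8.75, 6.90 and 7.19 in MI/RI, where the lowest MI/RI value fell just below the highest sham value. The log2FC was 0.35 (SE 0.24, 95% interval -0.18 to 0.87, adjusted p = 0.281). An increase within these intervals could not be told from no change with 3 samples in each group. Relative to the median of all genes, their log2FC was 0.17 and 0.05. Relative to the median of genes with at least 5 FPKM it was -0.20 and -0.32.

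Among the transcription factors, *Atf4* was called higher. ATF4 is the bZIP factor of the PERK branch, and its protein is controlled mainly at translation. Its FPKM was 40.6, 44.1 and 48.9 in sham and 98.3, 140.2 and 90.6 in MI/RI, with the highest value in replicate 2. The log2FC was 1.28 (SE 0.25, 95% interval 0.72 to 1.83, adjusted p = 0.0061). *Atf6*, the sensor and transcription factor of the third branch, was expressed at a low level. Its FPKM was 0.516, 0.694 and 0.516 in sham and 1.66, 1.23 and 1.22 in MI/RI, without overlap. The log2FC was 1.12 (SE 0.28, 95% interval 0.49 to 1.75, adjusted p = 0.0155), and without sham replicate 3 the adjusted p was 0.060. At this level the log2FC depends on the pseudocount and was 0.59 with a pseudocount of 1 (adjusted p = 0.016).

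*Xbp1* and *Ddit3* were not called. *Xbp1*, the target of IRE1 and a factor for chaperone and degradation genes, had an FPKM of 12.4, 16.2 and 13.1 in sham and of 19.1, 20.5 and 18.8 in MI/RI. All 3 MI/RI values lay above the sham values, at a log2FC of 0.49 (SE 0.22, 95% interval 0.01 to 0.97, adjusted p = 0.109). *Ddit3* encodes CHOP, the pro-apoptotic factor downstream of ATF4. Its FPKM was 33.9, 21.7 and 23.2 in sham and 43.2, 39.4 and 31.7 in MI/RI. Sham replicate 1 lay above MI/RI replicate 3, so the groups overlapped. The log2FC was 0.55 (SE 0.26, 95% interval -0.02 to 1.12, adjusted p = 0.123), and without sham replicate 1 it was 0.75 with an adjusted p of 0.037. The *Ddit3* level in sham hearts, 26.3 ± 6.63 FPKM, was close to that of *Hspa5*, and their ranges overlapped.

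*Trib3*, a pseudokinase induced by ATF4 and CHOP, had the widest error of the 10 genes. Its FPKM was 0.422, 0.465 and 0.720 in sham and 1.29, 3.55 and 1.04 in MI/RI. The log2FC was 1.53 (SE 0.43, 95% interval 0.56 to 2.5, adjusted p = 0.024), the largest of the 10 on this scale, and 0.86 with a pseudocount of 1, below *Hspa5*, *Atf4*, *Herpud1* and *Calr*. Without MI/RI replicate 2 it was 1.02, with an adjusted p of 0.078. The call was also lost without sham replicate 1 (adjusted p = 0.064) and without sham replicate 2 (adjusted p = 0.078).

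*Herpud1* encodes a ubiquitin-like membrane protein of ER-associated degradation and was the only gene of the 9 promoters searched with both an ERSE-II and a CARE. Its FPKM was 8.23, 4.13 and 4.22 in sham and 19.97, 9.64 and 13.8 in MI/RI. The log2FC was 1.38 (SE 0.34, 95% interval 0.62 to 2.15, adjusted p = 0.0145). Replicate 1 was the highest sample in sham and in MI/RI. The adjusted p was 0.066 without sham replicate 2 and 0.056 without sham replicate 3, and the log2FC rose to 1.71 without sham replicate 1 (adjusted p = 0.0060).

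Levels per length spanned a wide range. In sham hearts *Calr* stood first, *Atf4* second, and *Hspa5*, *Ddit3* and *Hsp90b1* came next with overlapping ranges. *Xbp1* followed, then *Pdia4* and *Herpud1*, whose ranges overlapped, and last *Atf6* and *Trib3*, which also overlapped. In MI/RI the ranges of *Calr* and *Atf4* overlapped, *Hspa5* stood clear of *Ddit3* and *Hsp90b1*, and *Herpud1* (14.5 ± 5.2) lay above *Pdia4* (7.61 ± 0.999) and next to *Xbp1*. The summed FPKM of the 10 genes was 205.7 to 211.6 in sham and 377.6 to 461.6 in MI/RI.

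A difference between genes of one sample is not moved by multiplying that library by a factor. Each gene was therefore also set against *Hspa5* in the same sample. *Hsp90b1* stood 0.11, 0.03 and 0.07 log2 units below *Hspa5* in sham and 1.11, 1.17 and 0.93 below it in MI/RI, a change of -1.0. The change of this difference was -1.12 for *Pdia4*, -0.97 for *Xbp1*, -0.91 for *Ddit3*, -0.41 for *Calr* and -0.34 for *Atf6*, and for these 6 genes the groups did not overlap. It was -0.19 for *Atf4*, 0.06 for *Trib3* and -0.08 for *Herpud1*, whose groups overlapped. For the low genes it depended on the pseudocount, being -0.85 with a pseudocount of 1 and -0.23 with 0.01 for *Atf6*, and -0.58 and 0.21 for *Trib3*. The exact two-sided permutation test gave 0.1, the smallest possible, for each of the 6 and 0.15 after Benjamini-Hochberg adjustment over the 9 differences. Among all other genes tested, 75.3% fell behind *Hspa5* in this way, so 6 of 9 is a share near the background. *Hsp90b1* and *Hspa5* had nearly equal levels in each sham sample and a difference of about 1 log2 unit in each MI/RI sample. The log2FC of *Hspa5* was 1.17 above the median of all genes, so the change of *Hsp90b1* was near the background. The ERSE was found in both promoters, and its part was not tested.

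**Figure D2:**
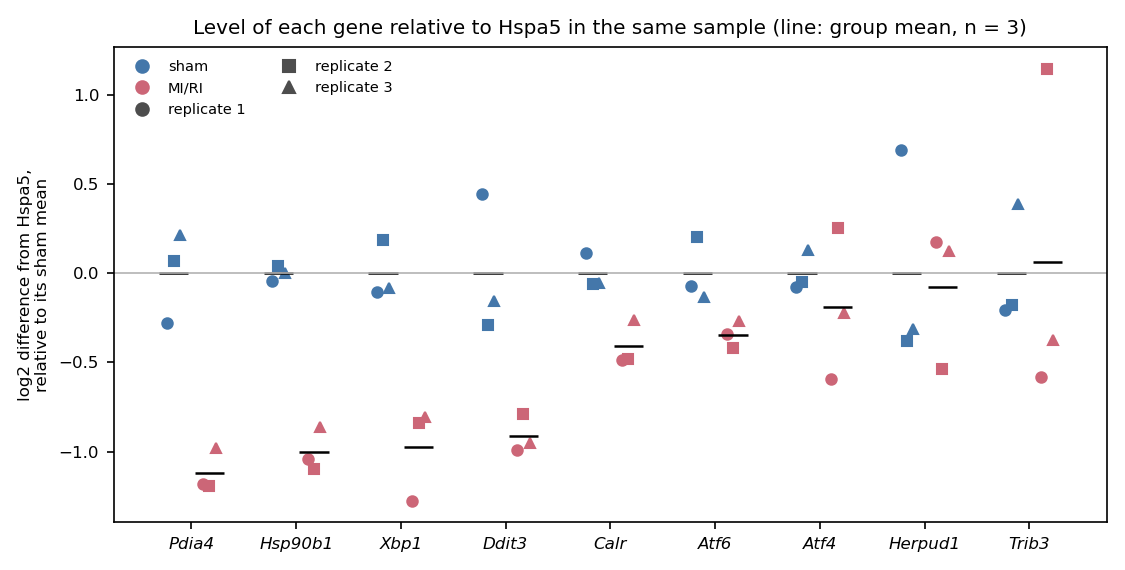
Log2(FPKM + 0.1) of 9 genes minus that of *Hspa5* in the same sample, set to 0 at the sham mean of each gene. Sham is in blue and MI/RI in red, with marker shape for the replicate and lines for group means (n = 3 samples). The 6 genes on the left lie lower in MI/RI without overlap, from -1.12 for *Pdia4* to -0.34 for *Atf6*, while *Atf4*, *Herpud1* and *Trib3* overlap.

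MI/RI replicate 1 held the highest MI/RI value for 7 of the 10 genes, and it did so for 58.3% of all genes tested. Replicate 2 was highest for *Atf4*, *Trib3* and *Xbp1*, and for 23.7% of all genes, so these shares were near the background. By a rule of likeness, the smallest root mean square distance of log2 values from the sham mean over the 6 samples, the genes most like *Hspa5* among 3783 candidates with at least 5 FPKM were *Gars* (0.093), which encodes glycyl-tRNA synthetase, *Ube2e2* (0.124), *Eif3b* (0.125), *Ran* (0.133) and *Ppa1* (0.134). The median distance of all candidates was 0.675. Those most like *Ddit3* were ENSRNOG00000012659 (0.074), which has no symbol in the table, *Lsm3* (0.104), *Arpc5l* (0.111), *Prss23* (0.111) and *Smim26* (0.112), against a median of 0.490.

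The wider pathway was described with 5 further lists that leave the 10 genes out. They hold 103 genes, of which 7 had no row under their symbol, 11 were below the minimum and 85 were tested. Of the 85, 35 (41.2%) were called higher and 2 (2.35%) lower, against 25.5% and 7.36% of all genes, with a median log2FC of 0.53. Among those called higher, *Chac1*, *Slc7a5* and *Tnfrsf10b* passed the minimum only through their MI/RI values. *Ero1b*, called lower, passed only through its sham values, so these shares depend on the minimum. Without sham replicate 3 the count was 13 higher and 1 lower (*Ddit4*, with *Eif2ak3* and *Ero1b* lost), when 14.0% of all genes were called higher and 3.28% lower.

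The list of sensors and signal transducers held little change on balance. Of 10 genes tested, 3 were called higher and 1 lower, shares near the 25.5% and 7.36% of all genes, with a median log2FC of 0.45. *Eif2ak3*, which encodes PERK, was the 1 called lower. Its FPKM was 1.53, 1.91 and 2.01 in sham and 1.03, 1.05 and 0.689 in MI/RI. Its log2FC was -0.92 (SE 0.26, 95% interval -1.51 to -0.33, adjusted p = 0.025), and its value stayed below 0 under every scaling, although the call was lost as TPM (adjusted p = 0.070) and without sham replicate 2, sham replicate 3 or MI/RI replicate 3 (adjusted p = 0.068, 0.104 and 0.088). *Ern1*, which encodes IRE1, was below the minimum, with 0.290, 0.592 and 0.343 FPKM in sham and 0.454, 0.459 and 0.330 in MI/RI, and these values overlapped. Called higher were *Tmbim6* (Bax inhibitor 1), with a log2FC of 0.93 and an adjusted p of 0.014, *Creb3l1* (0.90, adjusted p = 0.018) and *Creb3l2* (0.69, adjusted p = 0.048), both ER-anchored factors related to ATF6. The call of *Creb3l2* was lost with the replicate number as a block (adjusted p = 0.064), with a pseudocount of 1, without a minimum, after median centring, without the intensity trend and on leaving out any 1 sample (adjusted p from 0.055 to 0.171). Without sham replicate 3 the adjusted p was 0.082 for *Creb3l1* and 0.065 for *Tmbim6*, and without MI/RI replicate 3 it was 0.054 for *Creb3l1*. Not called were *Atf6b* (log2FC 0.57), the close relative of *Atf6*, *Eif2s1* (0.53), which encodes eIF2α, *Traf2* (0.37), the adaptor of IRE1, *Ppp1r15b* (0.25), a subunit of an eIF2α phosphatase, *Mbtps1* (0.05), a protease that cuts ATF6, and *Nck1* (-0.09). *Mbtps2*, the second such protease, was below the minimum at 0.207 ± 0.027 FPKM in sham and a mean of 0.136 in MI/RI. *Ppp1r15a* (GADD34) was listed at 0 in all 6 samples, which in a table without counts can be a failed estimate, and *Creb3* had no row.

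ER folding factors included 11 of 23 genes called higher and 1 lower, against 25.5% and 7.36% of all genes, with a median log2FC of 0.66. Without sham replicate 3 the calls higher were 4, *Hyou1*, *P4hb*, *Pdia6* and *Sdf2l1*, when 14.0% of all genes were called higher. The 4 with the largest log2FC were *Sdf2l1* (1.26, adjusted p = 0.0078), a partner of BiP, *Pdia6* (1.10, adjusted p = 0.0067) and *P4hb* (1.02, adjusted p = 0.011), both disulfide isomerases, and *Hyou1* (1.06, adjusted p = 0.010), the nucleotide exchange factor of BiP. *Sdf2l1* had an FPKM of 2.54, 2.0 and 3.02 in sham and of 6.40, 4.57 and 7.78 in MI/RI. *P4hb* had 19.5, 23.5 and 19.0 in sham and 50.9, 37.1 and 38.4 in MI/RI. *Pdia4*, of the same family, was not called. *Ero1b*, an oxidase of these isomerases, was called lower, at 0.834, 1.33 and 1.06 FPKM in sham and 0.331, 0.557 and 0.579 in MI/RI (log2FC -1.0, SE 0.33, adjusted p = 0.043), a call that held on leaving out sham replicate 1 and was lost on leaving out any other sample. It carries an ERSE in its promoter window too.

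Among genes of ER-associated degradation, 5 of 19 were called higher, a share near the 25.5% of all genes, and 0 lower, with 0 lower also at an unadjusted p under 0.05 in limma, and the median log2FC was 0.32, near that of all genes. The 4 of largest log2FC were *Vcp* (1.2, adjusted p = 0.0085), the ATPase that pulls proteins out of the membrane, its cofactors *Nploc4* (0.99, adjusted p = 0.033) and *Ufd1* (0.92, adjusted p = 0.014), and the ubiquitin-conjugating enzyme *Ube2g2* (0.90, adjusted p = 0.023). Without sham replicate 3 *Vcp* was the 1 gene called, and the adjusted p was 0.126 for *Nploc4*, 0.058 for *Ufd1* and 0.095 for *Ube2g2*. *Vcp* had an FPKM of 22.9, 22.4 and 18.5 in sham and of 66.7, 41.0 and 42.6 in MI/RI. The proteins that recognise substrates in the lumen and form the membrane channel, *Syvn1*, *Sel1l*, *Edem1* to *Edem3*, *Derl1*, *Derl2*, *Os9*, *Erlec1* and *Selenos*, were grouped after their values were seen. Of these 10, 0 were called by limma and 2 were higher at an unadjusted p under 0.05. *Selenos* was near the threshold (log2FC 0.61, adjusted p = 0.0502) and was called higher with the replicate block, with a pseudocount of 1, as TPM and with a minimum of 5 FPKM. *Vcp* and its cofactors also serve outside the ER.

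Of 14 translocation genes, 3 were called higher, against 25.5% of all genes, and 0 lower, with a median log2FC of 0.48 and 0 lower at an unadjusted p under 0.05. They were *Spcs1* (0.93, adjusted p = 0.013), a subunit of signal peptidase, *Srpra* (0.91, adjusted p = 0.013), a subunit of the signal recognition particle receptor, and *Ssr2* (0.80, adjusted p = 0.016), a subunit of the translocon-associated complex. Without sham replicate 3, 0 were called (adjusted p = 0.058, 0.057 and 0.058).

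Targets of ATF4 and CHOP held the largest changes. Of 19 tested, 13 were called higher and 0 lower, against 25.5% and 7.36% of all genes. At an unadjusted p under 0.05 in limma 0 were lower as well, and the median log2FC was 1.04. Without sham replicate 3, 8 of the 19 were called higher and *Ddit4*, a stress-induced inhibitor of mTORC1, was called lower. Of all genes, 14.0% were then called higher and 3.28% lower. *Ddit4* was also called lower under quantile normalization, and both *Ddit4* and *Sesn2* after rescaling without mitochondrially encoded genes. *Atf3*, an early stress factor, had an FPKM of 1.68, 1.25 and 1.62 in sham and of 54.4, 59.5 and 19.1 in MI/RI, a log2FC of 4.63 (SE 0.40, adjusted p = 3.2e-04). *Cebpb*, a bZIP factor that pairs with ATF4 and CHOP, had 23.7, 6.85 and 3.16 in sham and 125.6, 91.5 and 93.1 in MI/RI, a log2FC of 3.65 (SE 0.58, adjusted p = 0.0035). Its sham values spanned a wider range than those of any of the 10 genes, and the groups were still apart. *Slc7a5*, a transporter of large neutral amino acids, had 0.329, 0.220 and 0.314 in sham and 2.18, 3.76 and 3.63 in MI/RI, a log2FC of 3.06 (SE 0.30, adjusted p = 6.1e-04). *Chac1*, which degrades glutathione, had 0.030, 0.026 and 0.027 in sham and 0.640, 1.97 and 1.06 in MI/RI. Multiplied by the relative depth of each library, its sham values were all 0.030, as 1 fragment or a few would give, so its log2FC of 3.25 (adjusted p = 0.0035) rests on the pseudocount and was 1.07 with a pseudocount of 1 and 4.90 with 0.01. The 5 tRNA synthetases of the list with a row under their symbol (*Aars1*, *Mars1*, *Nars1*, *Sars1* and *Wars1*), a group formed after the values were seen, were called higher, from 0.80 to 1.44 on the log2 scale. *Gars1* had no row under that symbol. Glycyl-tRNA synthetase stood under the symbol *Gars*, outside this list, with a log2FC of 1.47 (limma adjusted p = 0.0036). Below the minimum were *Asns*, *Atf5*, *Slc7a11*, *Psat1*, *Gdf15*, *Fgf21* and *Cth*. Of these, *Fgf21* fell without overlap, from a mean of 0.197 FPKM in sham to 0.044 in MI/RI. The groups of the others overlapped. *Chac1*, *Slc7a5* and *Tnfrsf10b*, all called higher, had sham means of 0.027, 0.288 and 0.248. They passed the minimum, a mean over all 6 samples, only through their MI/RI values, so the counts of this list depend on it.

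**Figure D3:**
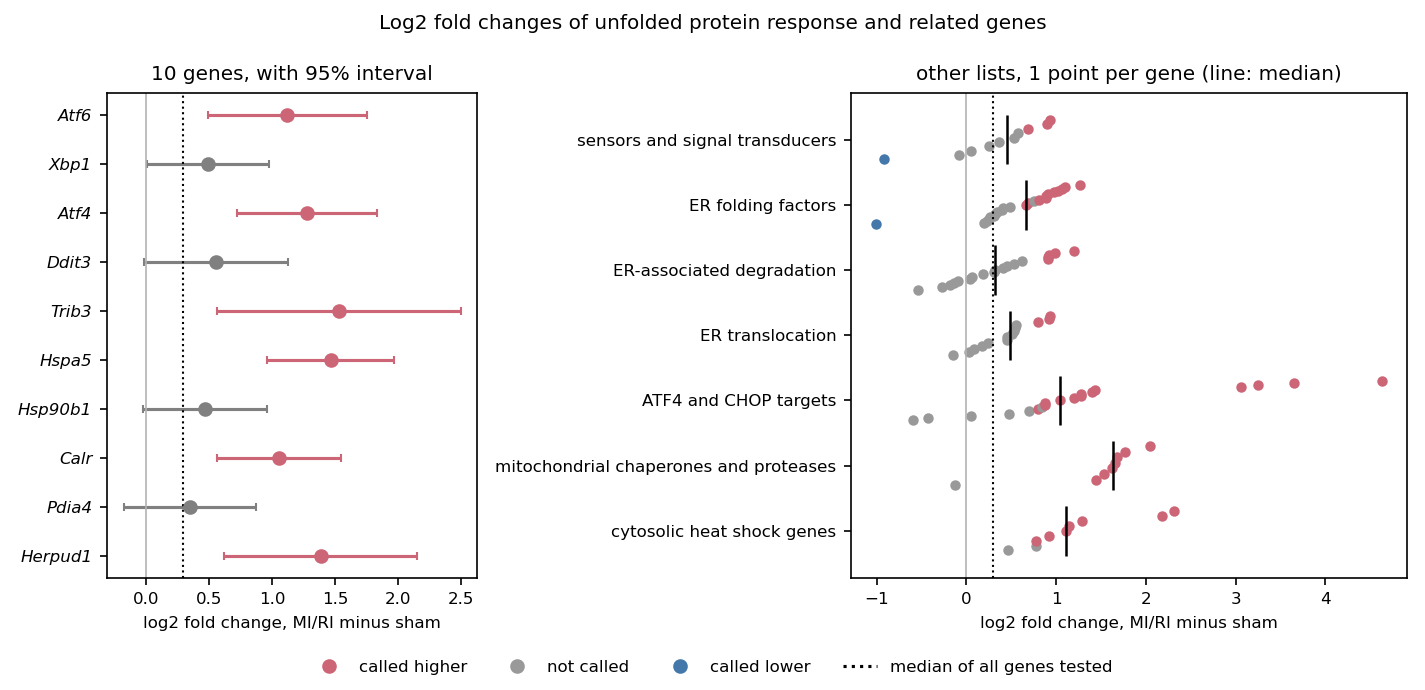
Log2FC, MI/RI minus sham, of the 10 genes with 95% intervals (left) and of single genes of 7 other lists (right, black line for the list median), with red for called higher, blue for called lower, grey for not called and the dotted line for the median of all genes at 0.29. The 10 genes lie from 0.35 to 1.53, and the targets of ATF4 and CHOP reach 4.63.

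Stress genes outside the ER were called higher as well, beside 25.5% of all genes. Of 8 mitochondrial chaperones and proteases 7 were called higher, with a median log2FC of 1.63, and of 9 cytosolic heat shock genes 7 were called higher, with a median of 1.11. These medians were above that of the 10 genes, 1.09, and no test of the difference between lists was made.

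Of the 21 genes with an ERSE, 14 were tested, 4 were called higher (*Hspa5*, *Calr*, *Ppm1l* and *Zfand2a*) and 2 lower (*Ero1b* and *Pan2*), with a median log2FC of 0.43, and 4 of 14 is a share near the 25.5% of all genes. Of the 15 with an ERSE-II, 8 were tested, 5 were called higher (*Herpud1*, *Hyou1*, *Dnajb11*, *Nucb1* and *Ggct*) and 0 lower, with a median of 0.71, against the same 25.5% and 7.36%. *Hsp90b1* and *Xbp1* were among the ERSE genes that were not called.

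Most of the calls changed with the scaling of the libraries. When FPKM were rescaled to the sum of all genes that are not mitochondrially encoded, *Hspa5* had 28.2, 40.5 and 41.1 in sham and 62.9, 58.1 and 53.2 in MI/RI. It was then the 1 gene of the 10 that was called higher (log2FC 0.68, adjusted p = 0.046), and 0 were called lower, against 7.25% of all genes higher and 26.1% lower. The groups stayed apart for *Hspa5* and *Calr*, 2 of the 10, and for 11.4% of all genes. *Hsp90b1*, *Xbp1*, *Ddit3* and *Pdia4* then had negative values, from -0.23 to -0.43, none of them called. This scaling moved the median of all genes to -0.46, and relative to it the genes stood almost as before, with *Hspa5* at 1.14, *Trib3* at 1.29 and *Pdia4* at 0.03. Under quantile normalization *Atf6* and *Trib3* were the 2 called higher, against 13.2% of all genes, with 14.2% lower, and *Hspa5* had a log2FC of 0.48 (adjusted p = 0.091). As TPM, FPKM divided by their sum, the 10 genes gave 6 calls (31.5% of all genes higher and 4.61% lower), and after centring on the median they gave 5, *Trib3* being lost (18.5% and 14.2%). *Atf3* and *Cebpb* of the wider lists were called higher under each scaling tried.

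**Figure D4:**
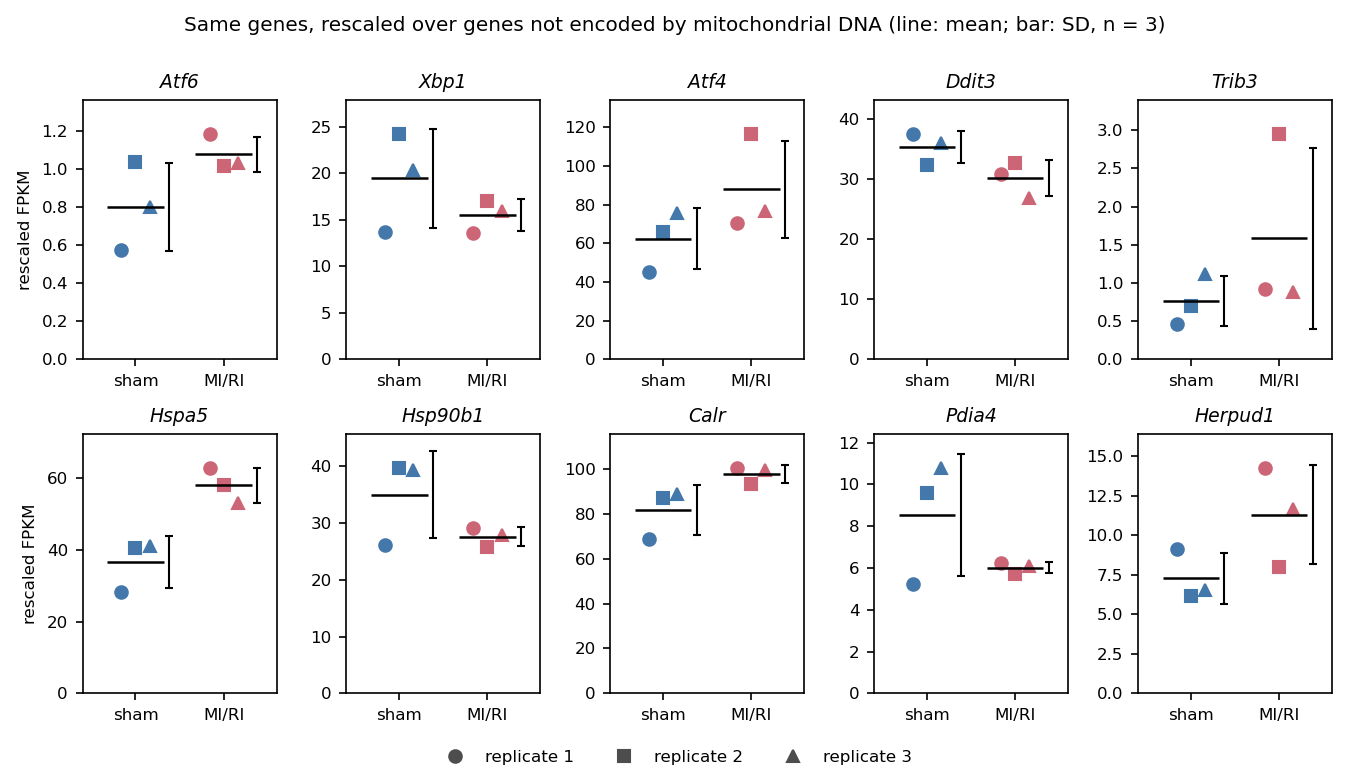
FPKM of the 10 genes after rescaling to the sum of genes that are not mitochondrially encoded (linear axis from 0), with sham in blue, MI/RI in red, marker shape for the replicate, lines for the mean and bars for the SD (n = 3). The groups are apart for *Hspa5* and *Calr* and overlap for the other 8.

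Some markers of heart cells also differed between the groups, beside 25.5% of all genes called higher and 7.36% called lower. All 7 cardiomyocyte markers, such as *Myh6* and *Tnnt2*, were present in each library. Their summed FPKM was 10524, 3658 and 3226 in sham and 30388, 21860 and 21184 in MI/RI, and 5 of 7 were called higher with a median log2FC of 1.92, more than for any of the 10 genes. Sham replicate 1 stood apart from the other sham samples in this sum. It was the highest sham sample for *Ddit3*, *Herpud1* and *Calr*, 3 of the 10 genes, and for 27.8% of all genes, a share near it. Neutrophil and monocyte markers were called higher for 3 of 5 genes, with a sum of 50.8 to 66.0 in sham and 74.7 to 142.6 in MI/RI. A further 3 genes of that list were below the minimum. *Mmp8*, called higher, and *Csf3r*, not called, had sham means of 0.176 and 0.258 FPKM. Both passed the minimum only through their MI/RI values, so the count for neutrophil and monocyte markers depends on it. Fibroblast markers were called higher for 2 of 7 (sum 420.1 to 580.9 and 605.0 to 669.3) and smooth muscle and pericyte markers for 1 of 4 (73.2 to 258.3 and 130.6 to 320.3), shares near the 25.5% of all genes. Endothelial markers were called for 0 of 7 (171.0 to 223.6 and 171.9 to 201.8), with 1 higher and 1 lower at an unadjusted p under 0.05 in limma. Macrophage markers were called lower for 2 of 5 (23.5 to 25.3 and 23.2 to 27.3), and 0 of 2 B cell and plasma cell markers were called (2.26 to 2.86 and 0.999 to 6.32), also at an unadjusted p under 0.05. The 3 red blood cell markers had no row. In a piece of tissue, fewer cells of a type and less RNA per cell cannot be told apart, and the part of cell make-up in the values of the 10 genes was not tested. Centred on the cardiomyocyte markers, all 10 genes had negative values and 5 were called lower, as were 74.8% of all genes, with 0.411% called higher.

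**Figure D5:**
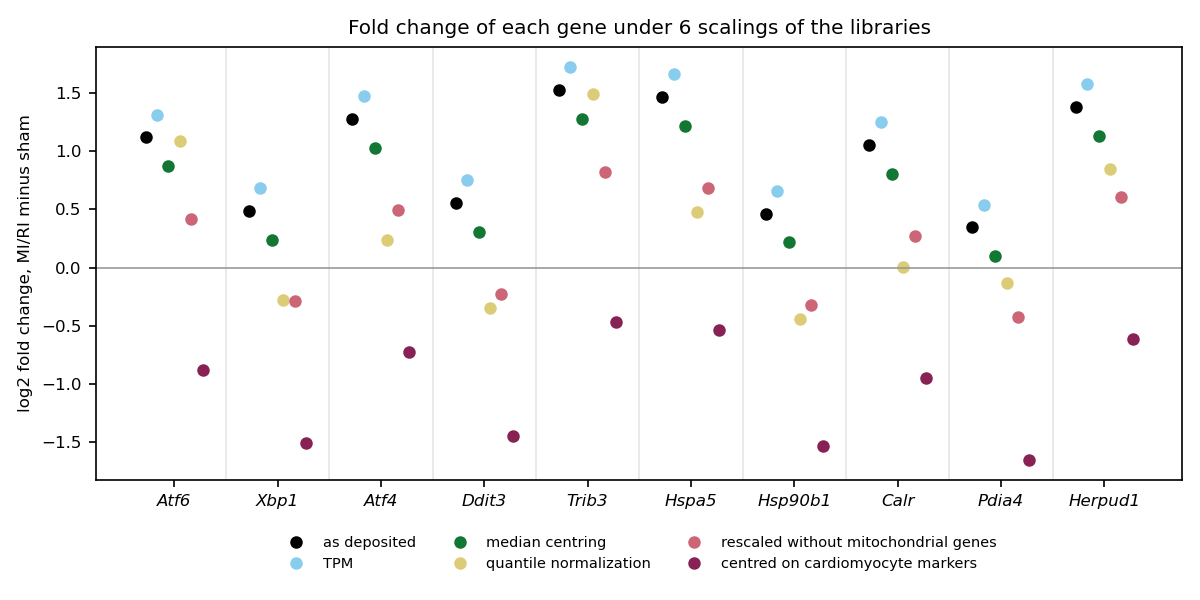
Log2FC (MI/RI minus sham) of the 10 genes under 6 scalings of the libraries, with 0 as the grey line. Centring on cardiomyocyte markers puts every gene below 0, and *Hspa5* runs from 1.66 as TPM to -0.54 under that centring.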

How the data were processed

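Total RNA of rat myocardium was isolated with Trizol and sequenced from a stranded total RNA kit, per the labels. The authors deposited FPKM values per gene and sample, already divided by gene length and library size. The submitters' processing notes name STAR and HTSeq. Their versions and settings, the genome build and the annotation are not given in the sources used here. Of 30452 rows, 7092 had no symbol and kept their identifier, and rows of one symbol were summed. No counts were given, so the absolute depth is unknown. Steps among 1698 low genes, 88.3% of them in whole steps or 0.5 of a step within 0.05, put the relative depth of the libraries between 0.871 and 1.18.

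Log2(FPKM + 0.1) of genes with a mean of at least 0.5 FPKM was compared with limma 3.58.1 in R 4.3.3 (intensity trend, Benjamini-Hochberg over 10942 genes, adjusted p under 0.05). The labels name no batch and do not say that each sample is a separate rat, so p-values measure the spread between these samples, which may be technical. Single values were compared with exact permutation tests in scipy 1.17.1. Scripts were tested on simulated data. The 10 genes and all lists were chosen with earlier results of these data known. Named were the 10 genes, all sensors, and from each other list up to 4 called genes of largest positive and 2 of largest negative log2FC. Some genes of the lists are not reported singly here. Deviations of same-numbered sham and MI/RI samples were weakly correlated (0.203, 0.117 and 0.118), and sham 3 reached 0.120 with MI/RI 2. The pairing was taken from the numbers in the titles and was not tested. A fit with that block stands among the alternatives. These were other pseudocounts, filters, scalings and thresholds, no trend, the highest row of each symbol, and leaving out each sample. Promoters came from RefSeq (GRCr8). No genome of the files' build was used.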

Additional observations from a re-analysis of the deposited data

How the results depend on the processing

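With 3 samples in each group and no counts, small changes and low genes are the least certain, and the shift between the groups' totals is the main limit. The direction of the 10 genes held under other pseudocounts, filters and thresholds, as TPM, after median centring, without the intensity trend, with the highest row of each symbol and on leaving out any sample. Under quantile normalization and after rescaling without mitochondrially encoded genes it changed for *Hsp90b1*, *Ddit3*, *Xbp1* and *Pdia4*. Centred on cardiomyocyte markers it changed for all 10, and the cause was not tested. With the replicate block 35 genes became 36 among those of the wider lists called higher, all genes gave 3085 higher and 895 lower (2740 and 764 shared with the fit without it), and the calls of *Creb3l2* (lost) and *Selenos* (gained) were the ones to change among the genes named in the report. Of all calls, 77.6% were higher as deposited, 87.3% as TPM, 56.5% after median centring, 48.0% after quantile normalization, 21.7% without mitochondrially encoded genes, 0.547% on cardiomyocyte markers and 91.9% with a minimum of 5 FPKM.

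Centred on cardiomyocyte markers, 0 of the 10 genes were called higher and 5 lower, of the wider lists 2 higher and 66 lower, and of all genes 45 higher and 8180 lower. The log2FC was then -0.54 for *Hspa5*, -1.54 for *Hsp90b1*, -0.72 for *Atf4*, -0.88 for *Atf6*, -1.45 for *Ddit3*, -1.51 for *Xbp1*, -0.47 for *Trib3*, -0.95 for *Calr*, -1.65 for *Pdia4* and -0.62 for *Herpud1*. For sensors it was -1.43 for *Atf6b*, -1.95 for *Mbtps1*, -1.47 for *Eif2s1*, -1.75 for *Ppp1r15b*, -1.10 for *Creb3l1*, -1.31 for *Creb3l2*, -1.63 for *Traf2* and -1.07 for *Tmbim6*. For the others it was -0.74 for *Sdf2l1*, -0.90 for *Pdia6*, -0.94 for *Hyou1*, -0.98 for *P4hb*, -0.80 for *Vcp*, -1.02 for *Nploc4*, -1.08 for *Ufd1*, -1.10 for *Ube2g2*, -1.07 for *Spcs1*, -1.09 for *Srpra* and -1.2 for *Ssr2*.

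Rescaled without mitochondrially encoded genes, 1 of the 10 genes was called higher, of the wider lists 4 higher and 10 lower, and of all genes 793 higher and 2857 lower. The log2FC was then -0.32 for *Hsp90b1*, -0.23 for *Ddit3*, -0.29 for *Xbp1*, -0.43 for *Pdia4*, -0.20 for *Atf6b*, -0.72 for *Mbtps1*, -0.25 for *Eif2s1*, -0.51 for *Ppp1r15b*, -0.064 for *Creb3l2* and -0.40 for *Traf2*. Under quantile normalization 2 of the 10 were called higher, of the wider lists 13 higher and 5 lower, and of all genes 1441 higher and 1559 lower, with a log2FC of -0.44 for *Hsp90b1*, -0.35 for *Ddit3*, -0.28 for *Xbp1*, -0.13 for *Pdia4*, -0.36 for *Mbtps1*, -0.20 for *Eif2s1* and -0.032 for *Ssr2*. After median centring 1554 genes were called lower and *Mbtps1* was at -0.20. As TPM 504 genes were called lower, 0 of them in the wider lists, and *Nck1* was at 0.11.

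With a minimum of 5 FPKM 166 of 3784 genes were called lower, 0 of them in the wider lists. With no minimum the wider lists also gave 0 lower, against 639 of 19226 genes. At an adjusted p under 0.01, 3 of the 10 genes were called higher, of the wider lists 10 higher and 0 lower, and of all genes 1185 higher and 211 lower. With an absolute log2FC over 1 required, the wider lists gave 15 higher and 1 lower of 85 genes tested. Of all 10942 genes, 1981 were then higher and 557 lower, so the share of the wider lists called higher was near the background. With a pseudocount of 1 the difference of *Trib3* from *Hspa5* changed by -0.58. Leaving out 1 sample at a time gave 13 to 32 genes of the wider lists higher and 0 to 2 lower, and 1528 to 2557 of all genes higher and 309 to 881 lower. The log2FC then ranged from -0.067 to 0.178 for *Mbtps1* and from -0.36 to 0.092 for *Nck1*. The change of the difference from *Hspa5* ranged from -0.41 to 0.014 for *Atf4*, from -0.27 to 0.27 for *Herpud1* and from -0.48 to 0.39 for *Trib3*.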
